A study of Mus musculus with 6 samples.

Results

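The Toll-like receptors (TLRs), their co-receptors and their first adaptors were followed in 1G11 cells, a mouse microvascular endothelial cell line, with and without forced expression of SOD3, the extracellular superoxide dismutase. The members were the genes Tlr1, Tlr2, Tlr3, Tlr4, Tlr5, Tlr6, Myd88, Ticam1, Cd14 and Ly96, chosen by name, with earlier results of these data known. They were 10 of 36009 named genes on the array and were read by 11 of 55681 probes, or 30 of 59305 non-control spots. The groups were 1G11-mock (SOD3 overexpression NO) and 1G11-SOD3 (SOD3 overexpression YES), with 3 biological replicates of each line on 3 arrays, and both lines share the strain label C57BL/6NCrLBR. Before RNA was taken, all cells had been given conditioned medium of N202.1A, a mouse breast cancer line, for 6 h, so no array shows either line without that medium. Each group is 1 modified line, and in bulk RNA such as this fewer cells of a type and less RNA per cell cannot be told apart.

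TLRs sense microbial molecules and molecules released by damaged cells. TLR2 pairs with TLR1 or TLR6 at the cell surface and senses lipoproteins. TLR4 senses lipopolysaccharide with its partner MD-2, the product of Ly96, after LBP and CD14 have handed the lipid over. TLR5 senses flagellin, and TLR3 senses double-stranded RNA in endosomes. Most of these receptors signal through the adaptor MyD88, while TLR3 and TLR4 also signal through TRIF, the product of Ticam1, and the outcome is transcription driven by NF-κB and interferon regulatory factors. Endothelial cells are known to use TLR2 and TLR4 to turn on adhesion molecules and chemokines.

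The signal of a gene comes from DNA probes of 60 bases fixed to the glass, so the probes of the receptors that the results turn on are shown. The files place the Tlr2 probe on the minus strand of chromosome 3, bases 83640344 to 83640403, the Tlr1 probe on the minus strand of chromosome 5, bases 65316115 to 65316174, and the first Tlr4 probe on the plus strand of chromosome 4, bases 66503470 to 66503529, with no genome build named. Tlr2 and Tlr1 are printed in full and the Tlr4 probe by its first 30 bases, 5′ to 3′. Capitals mark the longest run, 7 bases, that the Tlr2 probe shares with the Tlr1 probe, and the Tlr4 probe holds the same run.
Tlr2 probe: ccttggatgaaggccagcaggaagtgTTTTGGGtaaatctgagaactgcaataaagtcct
Tlr1 probe: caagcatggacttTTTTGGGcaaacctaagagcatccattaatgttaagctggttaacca
Tlr4 probe: ttgagaacaTTTTGGGgaggaagaaaggtc

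The first question was which members were above background. On all 6 arrays the scanner software marked the probes of Tlr2, Tlr4, Tlr6, Cd14, Ly96, Myd88 and Ticam1 as well above background. The Tlr1 probe was so marked on 1 of 3 1G11-SOD3 arrays and on none of 1G11-mock. The probes of Tlr3 and Tlr5 and a second Tlr4 probe were well above background on no array, so no difference between the lines is read from Tlr1, Tlr3, Tlr5 or that probe. A dim probe sets no limit on the protein and says only that no signal was measured there. The Tlr3 probe had 26.7% G and C bases, the lowest share among the member probes examined, against 45% in the Tlr2 and Tlr5 probes.

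The arrays carried a pattern of place that bears on some members. Across 128 bright probes with at least 5 copies, lying both in and outside the middle of the array, the copies in the middle were dimmer than the others by a median log2 value of -0.83, -1.27 and -2.62 on 1G11-mock arrays 1, 2 and 3, while on 1G11-SOD3 arrays 1, 2 and 3 they differed by 0.22, -0.22 and 0.13. A difference between the lines was therefore higher by a median of 1.73 log2 units in the middle. The spots of Ly96 and Ticam1, the second Tlr4 probe and 1 of 10 Myd88 copies lay there and are given apart. Beside the main results stands the value after a position adjustment, in which a smooth surface over rows and columns was taken off each array. On the slide each line filled a row of its own, so line and slide row cannot be told apart.

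The Sod3 probe, which also lies in the middle, read 13.61, 12.66 and 9.86 on the 1G11-mock arrays and 16.37, 16.30 and 16.26 on the 1G11-SOD3 arrays in log2 intensity. It was higher on every 1G11-SOD3 array, with a log2 fold change of 4.27 (SE 0.70, limma adjusted p = 0.0079) and of 2.74 after the position adjustment. Across all probes 1040 were called higher and 589 lower in 1G11-SOD3 (more than 2-fold at a limma adjusted p below 0.05), or 1.87% and 1.06% of those tested. Scaling the scanner software's processed signal at the 75th percentile moved the median of all probes to -0.52 and the calls to 1200 higher and 9918 lower. The probes of several defining endothelial markers gave no signal in either line: Cdh5, Tek, Tie1, Emcn and Erg were well above background on no array. Kdr, Eng, Vwf and Esam were on all 6, and Pecam1, Cldn5 and Egfl7 on some. A dim probe sets no limit on the protein here either. The study checked the endothelial origin of the cells by staining for VE-cadherin, the product of Cdh5.

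Of the 11 member probes, 2 were called lower and 0 higher in 1G11-SOD3, and at an unadjusted limma p below 0.05, which 7.2% of all probes passed as lower and 7.17% as higher, the counts were the same. Both called probes were of receptors. Over all 55681 probes 1.06% were called lower, and over the probes wholly outside the middle 1.18% were. The sensors Tlr2 and Tlr4 fell, and the co-receptor Cd14, the partner Ly96 and the adaptors Myd88 and Ticam1 did not pass the test. Of these, Ly96 and Ticam1 were read only in the middle, where few probes were called lower. In 10.3% of all probes the 3 readings of 1G11-SOD3 were all under those of 1G11-mock, and this held for the Tlr2 probe and the first Tlr4 probe among the 11.

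Tlr2 gave the largest difference among the members. Its log2 intensity was 12.49, 12.00 and 13.24 on 1G11-mock arrays 1, 2 and 3 (12.58 ± 0.62, SD, n = 3). On the 1G11-SOD3 arrays it was 10.85, 10.59 and 9.99 (10.48 ± 0.44, SD, n = 3). Every 1G11-SOD3 array was therefore below the dimmest 1G11-mock array. The log2 fold change was -2.10 (SE 0.33), or 4.28-fold lower, with a limma adjusted p of 0.0066. After the position adjustment it was -1.98 (limma adjusted p = 0.0085), and it was called under every alternative and with any 1 array left out.

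The array holds 10 copies of the Tlr2 probe, all outside the middle, which act as repeated readings of the same RNA and not as replicates. All 10 copies were lower on every 1G11-SOD3 array than on any 1G11-mock array. Their log2 fold changes ran from -2.60 to -1.55 (SD 0.33) as normalized and from -2.09 to -1.70 (SD 0.12) after the position adjustment. The surface was fitted without these copies, but its smoothing width was chosen on probes with many copies, Tlr2 among them. The 3 copies nearest the centre gave the 3 smallest differences before the adjustment, and after it they spanned the range of all 10.

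**Figure D1:**
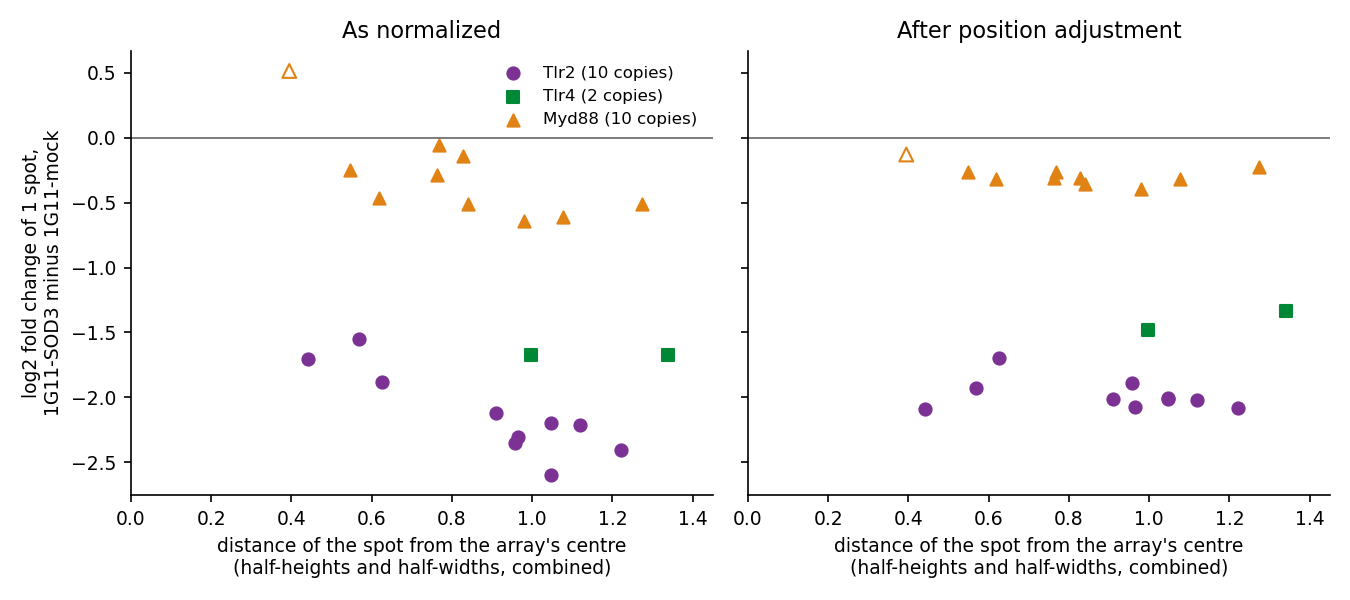
Log2 fold change (1G11-SOD3 minus 1G11-mock, y axis) of each copy of the Tlr2, Tlr4 and Myd88 probes against the distance of its spot from the centre of the array (x axis, rows and columns each scaled to the edge), as normalized on the left and after position adjustment on the right. Each point is 1 spot averaged over 3 arrays of each line, and the open point is the Myd88 copy in the middle. The 10 Tlr2 copies lie between -2.60 and -1.55 on the left and between -2.09 and -1.70 on the right.

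Tlr1 and Tlr6 encode the receptors that pair with TLR2. The Tlr6 probe read 8.86, 8.61 and 9.53 on the 1G11-mock arrays (SD 0.47, n = 3) and 8.0, 8.85 and 9.05 on the 1G11-SOD3 arrays (SD 0.56, n = 3). The groups overlapped, and the log2 fold change of -0.36 (95% interval -1.08 to 0.35) did not pass the test (limma adjusted p = 0.675). Tlr1 stayed near the background, between 7.50 and 8.26 on the 1G11-mock arrays and between 7.50 and 8.43 on the 1G11-SOD3 arrays.

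Tlr4, the lipopolysaccharide sensor, was lower too. Its first probe read 11.65, 11.53 and 12.12 on the 1G11-mock arrays (11.77 ± 0.31, SD, n = 3). On the 1G11-SOD3 arrays it read 9.76, 9.62 and 10.90 (10.09 ± 0.70, SD, n = 3). The groups did not overlap, with 1G11-SOD3 replicate 3 the nearest to 1G11-mock. The log2 fold change was -1.67 (SE 0.34), or 3.19-fold lower, with a limma adjusted p of 0.0220, and each of its 2 copies gave -1.67. After the position adjustment it was -1.41 (limma adjusted p = 0.018). The call was lost without 1G11-mock replicate 2 (limma adjusted p = 0.0658), 1G11-mock replicate 3 (0.0793), 1G11-SOD3 replicate 1 (0.0929) or 1G11-SOD3 replicate 2 (0.0813), while the direction stayed the same.

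A second probe is named as Tlr4 by its full name in the array design and belongs to another transcript. It lies in the middle of the array and read 6.32 to 6.99 on the 1G11-mock arrays and 6.64 to 7.64 on the 1G11-SOD3 arrays, well above background on none of them. It gives no second reading of the gene.

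Tlr5 and Tlr3 were at background throughout. The Tlr5 probe lay between 7.44 and 7.64 on the 1G11-mock arrays and between 7.37 and 7.82 on the 1G11-SOD3 arrays. The Tlr3 probe lay between 7.25 and 7.97 and between 7.49 and 7.54, respectively.

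**Figure D2:**
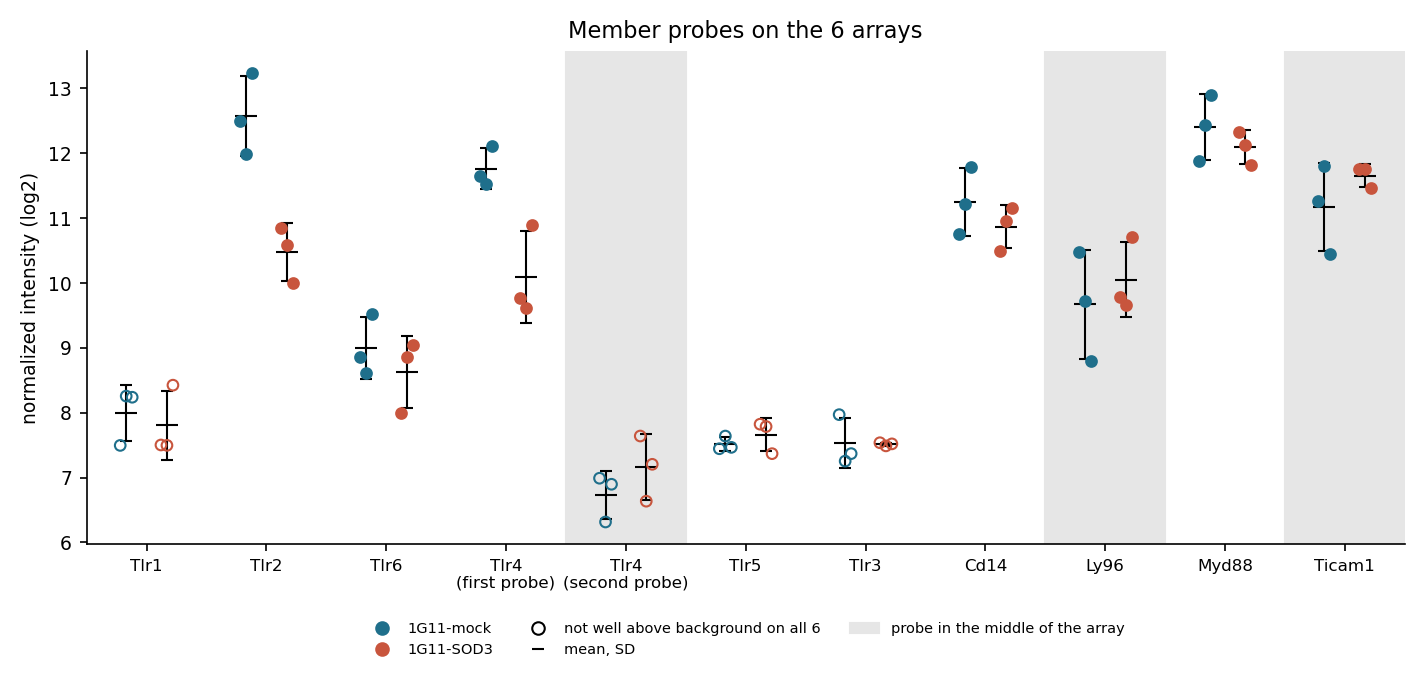
Normalized log2 intensity (y axis) of the 11 member probes (x axis) on the 3 1G11-mock and 3 1G11-SOD3 arrays, each point an array and the black marks the mean and SD of 3. Open points are probes not well above background on all 6 arrays and grey bands mark probes in the middle of the array. For Tlr2 and the first Tlr4 probe the groups do not overlap, and every other probe overlaps between the lines.

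The co-receptors of the lipopolysaccharide sensor did not pass the test. Cd14, which hands lipopolysaccharide to the receptor, read 10.75, 11.22 and 11.80 on the 1G11-mock arrays and 10.50, 10.96 and 11.15 on those of 1G11-SOD3. The groups overlapped and the log2 fold change was -0.39 (95% interval -1.04 to 0.27, limma adjusted p = 0.616), and 0.03 after the position adjustment. Ly96, whose product MD-2 binds the lipid within the receptor complex, has its spot in the middle, where it read 10.48, 9.72 and 8.80 on the 1G11-mock arrays and 9.78, 9.66 and 10.71 on the 1G11-SOD3 arrays. Its log2 fold change was 0.38 (95% interval -0.52 to 1.28, limma adjusted p = 0.735) as normalized and -0.32 after the position adjustment, so its direction is not settled.

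The adaptors did not pass the test either. Myd88, the adaptor of most TLRs and of the interleukin-1 receptor, read 11.89, 12.43 and 12.90 on the 1G11-mock arrays and 12.34, 12.13 and 11.81 on those of 1G11-SOD3. Its log2 fold change was -0.31 (95% interval -0.94 to 0.31, limma adjusted p = 0.681). Its 9 copies outside the middle gave -0.64 to -0.05 and the copy in the middle gave 0.51, and after the position adjustment the former gave -0.40 to -0.22 and the latter -0.13. Ticam1, the adaptor of TLR3 and TLR4, has its spot in the middle and read 11.26, 11.80 and 10.44 on the 1G11-mock arrays and 11.76, 11.76 and 11.46 on the 1G11-SOD3 arrays. Its log2 fold change was 0.49 (95% interval -0.21 to 1.19, limma adjusted p = 0.540), and 0.12 after the position adjustment. Of the probes wholly in the middle 0.0487% were called lower, beside 1.18% of those outside it.

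**Figure D3:**
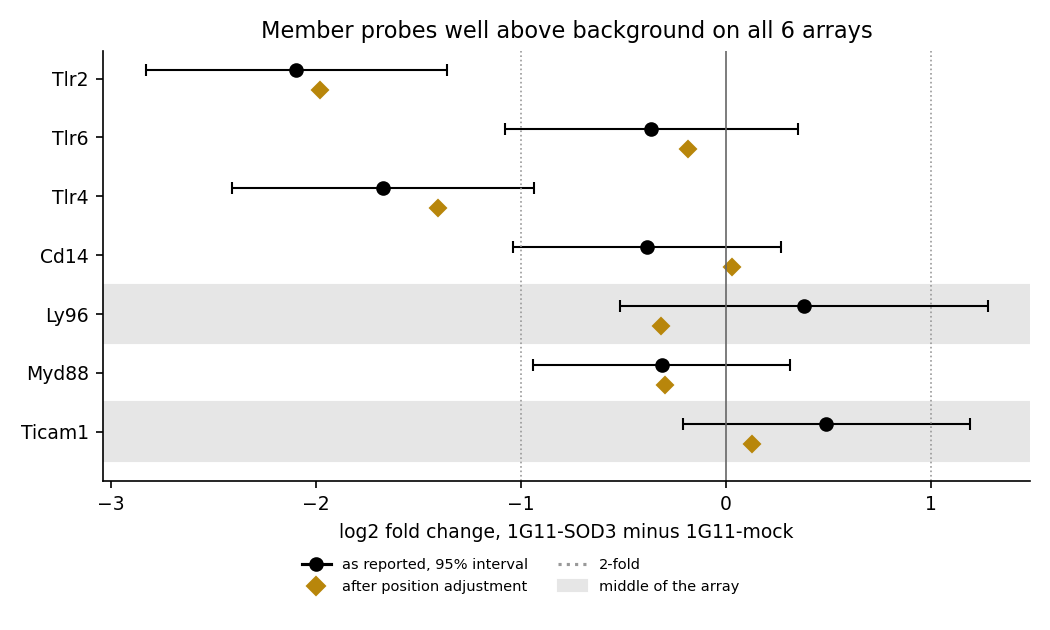
Log2 fold change (1G11-SOD3 minus 1G11-mock, x axis) of the 7 member probes well above background on all 6 arrays (y axis), as circles with 95% limma intervals and as diamonds after position adjustment, grey bands marking the middle of the array. The intervals of Tlr2 and Tlr4 lie wholly below 0, and those of Tlr6, Cd14, Ly96, Myd88 and Ticam1 include 0.

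The rest of the pathway was read with 38 further genes, each by its brightest probe. Of these, 3 were called lower and 0 higher, against 1.3% of all genes called lower and 2.16% called higher. At an unadjusted limma p below 0.05, 8 were lower and 2 higher, against 8.05% of all genes lower and 7.81% higher at that threshold, the latter 2 being Tbk1 and Ikbkg, both read by probes within the dim middle of the 1G11-mock arrays and named here after their values were seen. The 38 genes had a median log2 fold change of -0.33, beside -0.04 over all genes, and 23 of them were well above background on all 6 arrays. Of the 36009 genes, 17201 were well above background on no array and 3879 were read in the middle. Among the 38 these were 8 and 2, so the 2 medians cover unlike genes. All 6 further receptors (Tlr7, Tlr8, Tlr9, Tlr11, Tlr12 and Tlr13) failed the test, and the probes of Tlr7 and Tlr9, endosomal sensors of nucleic acids, were the ones well above background on all 6 arrays.

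Lbp, the soluble protein that carries lipopolysaccharide to CD14, showed the largest difference of the 38. It read 15.73, 16.03 and 15.81 on the 1G11-mock arrays and 12.95, 12.90 and 12.36 on the 1G11-SOD3 arrays. Each line was tight and the lines were far apart, with a log2 fold change of -3.12 (SE 0.24), or 8.67-fold lower, at a limma adjusted p of 0.00013. The position adjustment gave -3.21, and the call held with any 1 array left out. In the chain that handles lipopolysaccharide, Lbp and Tlr4 were thus called lower, and Cd14 was not called. Ly96 was not called either, but its spot lies in the middle, where 0.0487% of probes were called lower. It can therefore not be set against Lbp and Tlr4, which were read outside the middle.

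Among the 22 signaling genes, 2 were called lower. Irak2, a kinase that MyD88 recruits, read 12.75, 12.92 and 12.93 on the 1G11-mock arrays and 11.54, 11.45 and 11.19 on the 1G11-SOD3 arrays, with a log2 fold change of -1.48 (SE 0.22, limma adjusted p = 0.0045). With the processed signal scaled at the 75th percentile Irak2 was at -0.82 and not called (limma adjusted p = 0.069). Irf7, which switches on interferon genes downstream of the receptors, read 10.67, 10.40 and 10.02 and then 9.39, 9.04 and 8.08, with a log2 fold change of -1.53 (SE 0.33, limma adjusted p = 0.032). The Irf7 call was lost in 4 of 6 fits with an array left out (without 1G11-mock replicate 1 or 2 or without 1G11-SOD3 replicate 2 or 3), with limma adjusted p up to 0.118, and also without background correction (0.0515) and with the middle left out (0.0714). The brightest uncalled genes were Hsp90b1, the chaperone that folds TLRs, at -0.33, Irf3, a transcription factor activated through TRIF, at -0.56 and Tab1, a subunit of the TAK1 kinase complex, at -0.56, with limma adjusted p of 0.711, 0.248 and 0.301.

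Genes known to be induced after TLR stimulation made up the other list. Of these 26 genes 9 were called lower and 0 higher, again against 1.3% and 2.16% of all genes, and the median of their log2 fold changes was -1.12 beside -0.04 over all genes. Of the 26 genes, 7 were well above background on no array and 0 were read in the middle, so these medians too cover unlike genes. At an unadjusted limma p below 0.05, 14 were lower and 0 higher, again against 8.05% and 7.81% of all genes. The list is not independent evidence of its direction, since the study itself names Ccl2, Ccl7, Cxcl10, Icam1 and Vcam1 from these arrays. Many of the genes are also induced by other cytokine receptors. The classical products of macrophage TLR stimulation Tnf, Il6, Il1b and Ifnb1 were well above background on no array.

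The chemokines Ccl2, Ccl7 and Cxcl10, which attract monocytes and T cells, fell. Ccl2 read 15.75, 15.34 and 16.60 on the 1G11-mock arrays and 12.36, 12.10 and 12.77 on the 1G11-SOD3 arrays, a log2 fold change of -3.48 (SE 0.32, limma adjusted p = 0.00039). The log2 fold change of Ccl7 was -2.78 and that of Cxcl10 was -2.07. The Cxcl10 call was lost after the position adjustment (-1.41, limma adjusted p = 0.074) and without background correction (-1.73, limma adjusted p = 0.103). Cxcl1, a neutrophil attractant, stood at -1.62 with groups that did not overlap and missed the threshold (limma adjusted p = 0.053). With the replicate number as a block it was called (limma adjusted p = 0.0021), as it was after the position adjustment (-1.90, 0.031). It was also called with the processed signal (0.021), 75th percentile scaling (0.010) and dim probes left out (0.043). Under the other alternatives it was not (0.054 to 0.107).

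The adhesion molecules Vcam1 and Icam1, which leukocytes bind on endothelium, fell as well. Vcam1 read 16.83, 16.30 and 17.23 on the 1G11-mock arrays and 13.80, 13.38 and 14.11 on the 1G11-SOD3 arrays, a log2 fold change of -3.02 (SE 0.29, limma adjusted p = 0.00039). Icam1 was at -1.99 (limma adjusted p = 0.032). In a separate experiment the study found similar Icam1 mRNA in both lines, unstimulated or after TNF-α. Those conditions differ from the conditioned medium used for these arrays. The third adhesion molecule of the list, Sele, was at background on all arrays.

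Regulators of NF-κB moved the same way. Tnfaip3, which encodes A20, was at -2.29, Nfkbiz, an atypical IκB, at -2.07 and Nfkbia, which encodes IκBα, at -1.29, all called. The Nfkbiz probe was well above background on all 1G11-mock arrays but on only 2 of 3 1G11-SOD3 arrays. Nfkbia read 15.82, 15.72 and 15.99 on the 1G11-mock arrays and 14.18, 14.57 and 14.91 on the 1G11-SOD3 arrays, so the lines did not overlap. The study itself reported no difference in IκBα mRNA between the lines in its TNF-α experiment, a stimulus other than the conditioned medium. Of the interferon-induced genes, Ifit1 was called at -1.48, whereas Isg15 at -1.55 (limma adjusted p = 0.295) and Irf1 at -0.94, under 2-fold, were not. Ifit3, added after its values were seen, was at -0.13 with overlapping groups (limma adjusted p = 0.931). After the position adjustment it was at -1.18 and called lower (limma adjusted p = 0.037). For Isg15 1 array set the spread, since 1G11-SOD3 replicate 3 read 10.43 and the other 2 arrays of that line 13.39 and 13.59.

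Of the 9 calls in this list, those of Ccl2, Ccl7, Vcam1, Tnfaip3 and Nfkbiz held with any 1 array left out. Those of Icam1 and Ifit1 were lost in 5 of 6 such fits and those of Cxcl10 and Nfkbia in 4 of 6. Besides Cxcl10, other processing ended the call of Icam1 without background correction (limma adjusted p = 0.096), of Ifit1 with the middle left out (0.062) and of Nfkbia with the processed signal (-0.90, under 2-fold). The count fell to 5 without 1G11-SOD3 replicate 2.

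**Figure D4:**
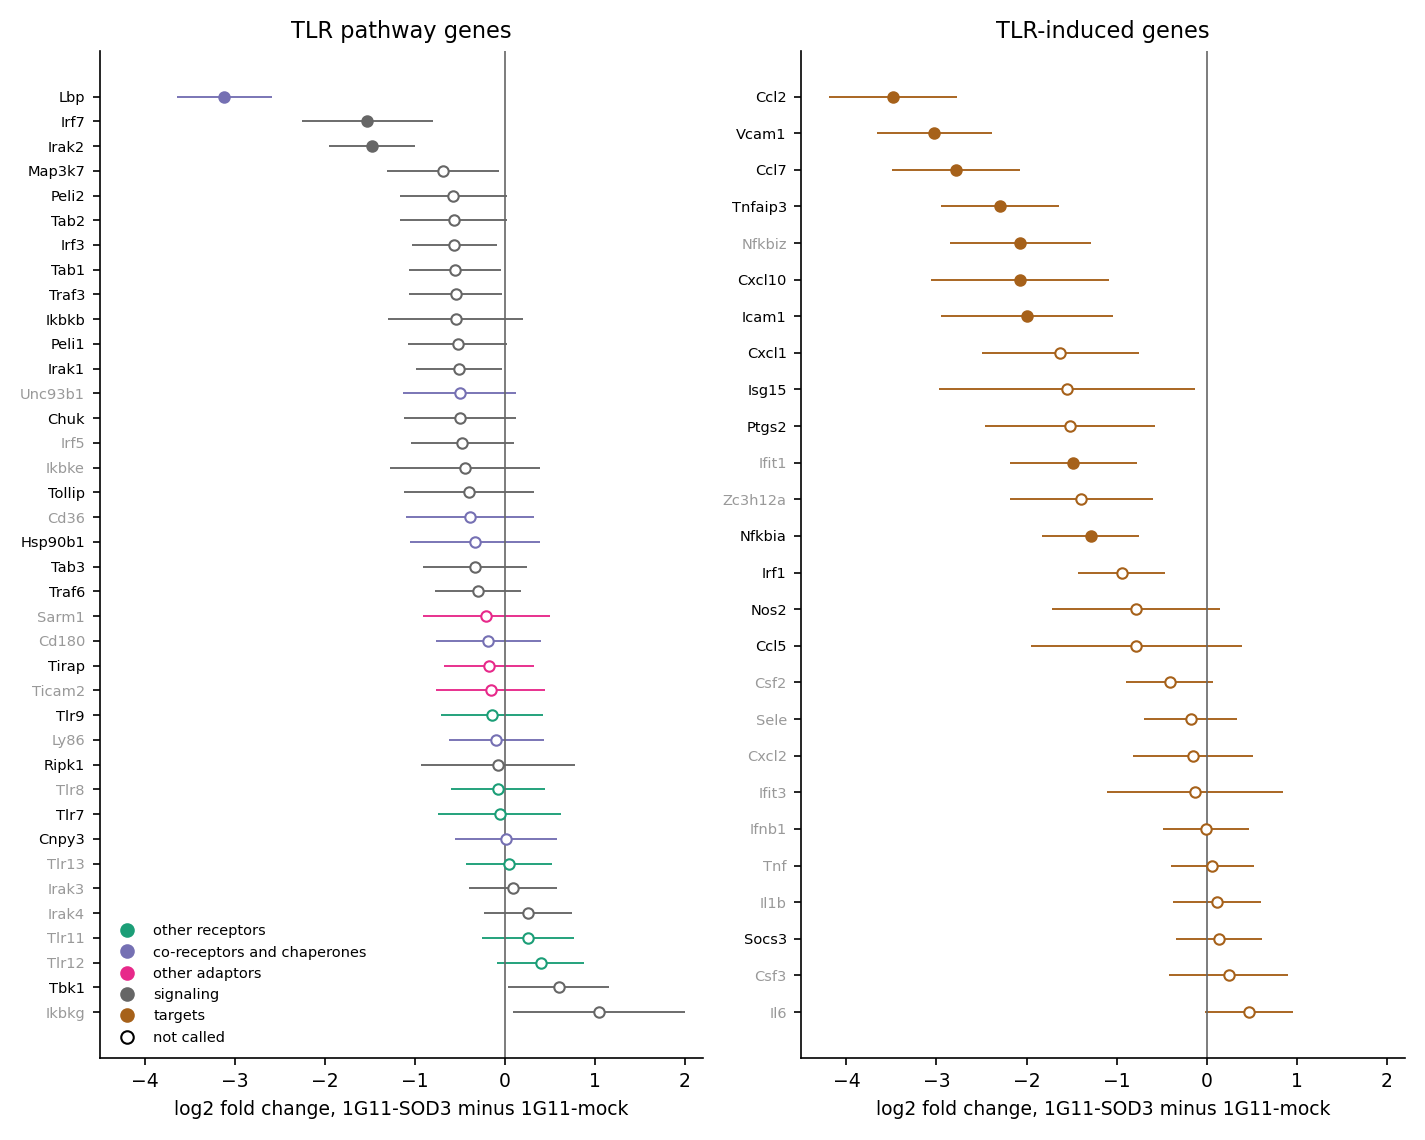
Log2 fold change (1G11-SOD3 minus 1G11-mock, x axis) with 95% limma intervals of the 38 further pathway genes on the left and the 26 TLR-induced genes on the right (y axis), filled where called. Gene names in grey were not well above background on all 6 arrays. Lbp, Irf7 and Irak2 are the filled points on the left, and all 9 filled points on the right lie below 0.

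Motifs were sought in the promoters of the members, since Tlr2 and several of the called TLR-induced genes are known NF-κB targets. RefSeq promoters (GRCm38.p6) were at hand for 7 of 10 member genes, and the 250 bases before each transcription start were read for the NF-κB consensus, which is its own reverse complement, so that a match lies on both strands. It was present in 9.55% of 32851 promoters. Of the 7 member genes with a promoter 3 held it (Tlr2, Tlr3 and Ticam1), of which Tlr2 alone was called. Of the 12 called genes of both lists 7 had a promoter and 3 of these held it (Cxcl10, Nfkbia and Tnfaip3). The Tlr2 promoter is shown for its match, chr3:83841609-83841858 on the minus strand, with capitals marking 11 bases, 173 to 163 before the start, that hold 2 overlapping matches. A match is a string of letters, and no binding was measured here.
Tlr2 promoter: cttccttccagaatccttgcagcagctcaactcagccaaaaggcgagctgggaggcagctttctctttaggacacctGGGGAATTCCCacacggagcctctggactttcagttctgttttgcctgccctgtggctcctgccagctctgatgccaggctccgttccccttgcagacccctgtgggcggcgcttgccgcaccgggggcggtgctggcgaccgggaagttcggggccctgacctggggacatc

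The genes whose pattern over the 6 arrays was most like that of Tlr2 were taken from 15101 probes outside the middle and well above background. They were H2-Q7, a class I histocompatibility gene of a family whose members share sequence, with Pearson's r of 0.998 and a log2 fold change of -1.75, C8g, a complement component, with 0.997 and -0.68, and Maco1, with 0.996 and -0.67. These correlations describe 6 arrays on 1 slide that fall into the same groups, and carry no test.

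Markers of other cells were set beside these results. For macrophages, cells rich in TLRs, 5 of 8 markers (Ptprc, Adgre1, Fcgr1, Lyz2 and Mrc1) were well above background on no array, and the summed level of the 8 lay between 14.15 and 14.62 log2 units on the 1G11-mock arrays and between 14.44 and 14.64 on the 1G11-SOD3 arrays, so the ranges overlapped. Most of that sum came from Itgam, at 13.91 to 14.40 and 14.06 to 14.44, and Csf1r and Cd68 were also well above background on all 6 arrays, Cd68 with a log2 fold change of 0.84 (limma adjusted p = 0.221). The sums were taken without the position adjustment. With it the log2 fold change went from -0.005 to -0.76 for Itgam (limma adjusted p = 0.086) and from 0.39 to -0.39 for Csf1r. Cd68 was at 0.82 after it, and none of these 3 was called. The summed level of 12 endothelial markers lay between 14.44 and 14.88 and between 13.97 and 14.26, with no overlap. Most of it came from Eng (log2 fold change -1.05, and -0.71 after the position adjustment) and Kdr (-0.51 and -0.47), neither called. The dimmer Vwf was called lower (log2 fold change -1.65, and -1.46 after the position adjustment) and Egfl7 higher (1.82). After the position adjustment Egfl7 was at 1.01 and no longer called (limma adjusted p = 0.063). The summed level of 6 fibroblast and pericyte markers lay between 14.35 and 15.12 and between 15.34 and 17.41, again with no overlap, and Col1a1 (3.1), Acta2 (3.01) and Pdgfrb (2.39) were called higher. The highest sum came from Dcn on 1G11-SOD3 replicate 3, at 17.05 against 13.51 and 13.59 on the other 2 arrays of that line. Dcn (0.29) and Pdgfra (0.52) were not called, and Rgs5 was well above background on no array. The part of these shifts in the lower Tlr2, Tlr4 and TLR-induced genes was not tested. The summed level of 5 epithelial markers overlapped between the lines, at 16.03 to 16.77 and 15.43 to 16.36, nearly all of it from Krt19.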

How the data were processed

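RNA of 3 1G11-mock and 3 1G11-SOD3 cultures was hybridized to single-color Agilent 8 × 60 mouse arrays on 1 slide. The authors deposited unnormalized scanner intensity files (Agilent Feature Extraction 10.7.3.1) and their own normexp-corrected, quantile-normalized log2 table, which served as an alternative. As in the study's methods, intensities were corrected by normexp (offset 50), taken to log2, quantile normalized and tested with limma 3.58.1 (R 4.3.3), Benjamini-Hochberg adjusted over all probes and called at over 2-fold and adjusted p below 0.05. Control spots and spots flagged as outliers were left out and copies of a probe averaged. A probe counted as well above background on an array when most of its copies were. The middle of the array is rows 129 to 256 and columns 55 to 109 (of 384 and 164). The position surface was smoothed over 8 rows and fitted to spots of probes with fewer than 5 copies. In 192 probes with more copies the SD among copies fell from 0.70 to 0.27. Of 4, 8, 16 and 32 rows tried, 8 gave the lowest SD in these 192 probes. That fall is therefore no independent check of the adjustment. After the adjustment 1750 probes were called lower, of which 1334 lacked a line whose arrays were all well above background. Between 34.2% and 43.8% of spots were well above background and 0 were saturated, and the number of arrays limits the precision. Same-numbered arrays deviated together (r = 0.165, 0.103 and 0.157 over 16273 probes) and share a slide column, so the number was tried as a block. Members and lists were chosen with earlier results of these data known. Named are all members, every called gene of the lists and the 3 brightest uncalled of each outside the middle, the 3 genes most like Tlr2, and Sod3, besides markers. Alternatives were the background correction, scaling, flagged and dim spots, position, the deposited table, the block and each array left out.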

Additional observations from a re-analysis of the deposited data

How the results depend on the processing

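The 3 arrays of a line, all on 1 slide, limit what can be told. Tlr2 was called lower in all 9 alternatives (log2 fold change -2.13 to -1.91) and with any array left out (-2.39 to -1.77). Tlr4 was called in all 9 (-1.73 to -1.41), and its left-out values ran from -2.08 to -1.43. With an array left out, the member probes called lower numbered 1 to 2 and the TLR-induced genes called 5 to 7. With the processed signal scaled at the 75th percentile, member probes called lower were 4. The added 2 were the probes of Tlr3 (-1.33) and the second Tlr4 probe, both well above background on no array. In that fit 9918 of all 55681 probes were called lower, against 589 in the main fit. That second probe turned from 0.43 to -1.82 there and to -1.51 after the position adjustment, and the cause was not tested. Member probes called higher stayed at 0 under every alternative. The pathway count ran from 2 to 4 and the TLR-induced count from 5 to 13. Both highest counts came from the processed signal, the fit that called 9918 of 55681 probes lower. With the replicate number as a block (replicate block), 2 member probes, 3 pathway genes and 12 TLR-induced genes were called, and besides the added TLR-induced genes no call changed. Over all probes, calls were 655 higher and 401 lower without background correction and 1516 and 1082 with 75th percentile scaling (median of all probes -0.33). With the processed signal they were 1200 and 9918 (median of all probes -0.52). They were 695 and 1750 after the position adjustment and 412 and 356 with the middle left out. With an array left out they were 484 to 1277 higher and 282 to 517 lower. Of 254 values of 29 named genes and probes under other processing 8 lost a call, 6 gained one and 2 reversed.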
